A study of Mus musculus with 6 samples.

Results

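Neurons of the hippocampus fire action potentials through voltage-gated sodium channels, and 9 genes of this machinery were followed through the knockdown of Snhg11. They comprised the alpha subunits Scn1a, Scn2a, Scn3a and Scn8a, the beta subunits Scn2b and Scn3b, and the fibroblast growth factor homologous factors (FHFs) Fgf12, Fgf13 and Fgf14. The 9 genes were picked out by symbol from the 55401 genes in the count files, with earlier results of these data known, and all 9 were among the 19969 genes with enough reads to be tested. RNA came from the dorsal hippocampus of male WT mice, littermates of the trisomic Ts65Dn line, that were 4 months old. An antisense oligonucleotide (ASO) was injected into the dorsal dentate gyrus at 50 μg per hemisphere, and the tissue was taken 3 days later. The Control-ASO (3 samples) carried a scrambled sequence, and the Snhg11-ASO (3 samples) directs RNase H to the long noncoding RNA Snhg11. All 6 samples thus shared the genotype, the surgery and the gapmer chemistry. The dissected tissue was larger than the injected dentate gyrus, and it mixed granule cells, pyramidal cells, interneurons and glia. The study describes 3 mice per group, while the sample labels themselves do not tie a sample to an animal.

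The alpha subunit forms the pore of the channel and opens when the membrane is depolarised. Beta subunits are single-pass membrane proteins that change the gating and surface density of alpha subunits. FHFs resemble fibroblast growth factors in sequence but are not secreted. They bind the cytoplasmic tail of the alpha subunit and change how the channel inactivates, and several of these proteins gather at the axon initial segment, where the action potential starts.

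The read pairs assigned to genes on the reverse strand, the strand of the transcript in this library type, ranged from 28951250 to 43997537 per sample. Levels are given as CPM, in which the pairs on tested genes are brought to a common total in every sample, with TMM scaling factors between 0.982 and 1.02. The targeted Snhg11 transcript ranged from 209 to 551 CPM with Control-ASO and from 65.4 to 139 CPM with Snhg11-ASO, without overlap between the groups. Its log2 fold change (Snhg11-ASO over Control-ASO) was -2.13 ± 0.43 (SE), with an adjusted p of 0.395 in the edgeR quasi-likelihood test (Benjamini-Hochberg). With a threshold of 0.05, that test called 0 of the 19969 genes, against 885 lower and 734 higher at an unadjusted p under 0.05, while DESeq2 called 251. The samples held hippocampal neurons by their markers: each of 23 pan-neuronal, 13 granule cell, 13 pyramidal cell and 15 interneuron genes passed the filter on low counts. Choroid plexus genes, which mark tissue lining the ventricles, varied within both groups, with a summed level between 42.5 and 1984 CPM with Control-ASO and between 75.7 and 1346 CPM with Snhg11-ASO.

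The clearest differences among the 9 genes were in Fgf12 and Fgf14, whose Snhg11-ASO means were 69.3% and 69.8% of the Control-ASO means, and in Scn2a, at 84.8%. In these 3 genes every Snhg11-ASO sample lay below every Control-ASO sample. Across all genes tested, such a separation towards lower values was seen in 7.7%, and 7.73% of genes were separated in the opposite direction, which was the case for 0 of the 9. By the edgeR quasi-likelihood test with Benjamini-Hochberg adjusted p-values, 0 of the 9 genes passed the threshold, as did 0% of all genes. At an unadjusted p under 0.05, Fgf12 and Fgf14 were lower, against 4.43% of all genes, and 0 of the 9 were higher, against 3.68%. In DESeq2, Fgf14 was called (adjusted p = 0.0232), where 0.802% of the genes with an adjusted p were called lower and 0.549% higher. Of the 9 log2 fold changes 6 were below 0 and 3 above, with a median of -0.24, and the median over all genes tested was 0.01. In bulk tissue a smaller number of cells of a type and a lower RNA content per cell cannot be told apart, and this holds for every value below.

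**Figure D1:**
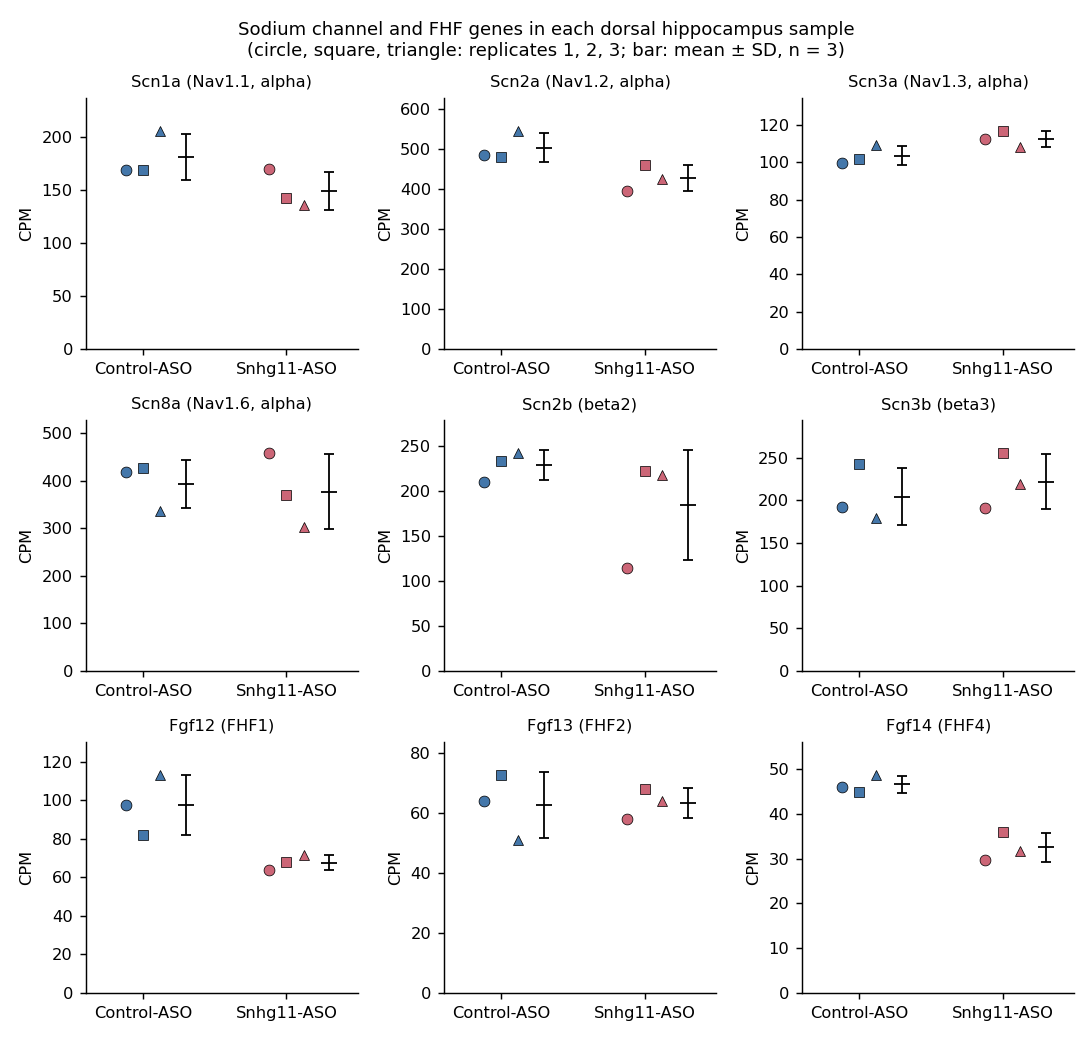
Level of each gene in every sample, in CPM on a linear axis from 0, with the 3 Control-ASO samples in blue and the 3 Snhg11-ASO samples in red. Symbols mark replicates 1, 2 and 3, and bars give the mean ± SD. For Scn2a, Fgf12 and Fgf14 all red points lie below all blue points, while for the other 6 genes the groups overlap.

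Among the alpha subunits, Scn2a had the highest level. It encodes Nav1.2, the main channel of the axon of excitatory neurons early in life and a channel of their dendrites later. Scn2a (ENSMUSG00000075318) spans chr2:65620771-65767447 on the plus strand of GRCm38. It measured 484, 481 and 545 CPM in Control-ASO replicates 1 to 3, against 396, 461 and 424 CPM with Snhg11-ASO in the same order. The groups did not overlap, but the highest Snhg11-ASO value, in replicate 2, lay close under the lowest Control-ASO value. Scn2a had a log2 fold change of -0.24 (SE 0.10, 95% interval -0.48 to 0.01), with an adjusted p of 0.618 in the edgeR quasi-likelihood test. An exact permutation test over the samples gave p = 0.1 (two-sided), the smallest p that 3 samples against 3 allow.

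Scn1a encodes Nav1.1, the channel on which fast-spiking parvalbumin interneurons depend, and lies beside Scn2a and Scn3a in a cluster on chromosome 2. Its gene (ENSMUSG00000064329) runs from 66270778 to 66440840 on the minus strand. Scn1a measured 168.5, 169.2 and 205.7 CPM with Control-ASO and 169.8, 142.3 and 136.0 CPM with Snhg11-ASO. Snhg11-ASO replicate 1 sat at the level of the lower Control-ASO samples, and the other Snhg11-ASO samples lay below all of them. For Scn1a the log2 fold change was -0.28 (SE 0.13, interval -0.58 to 0.02), and the edgeR quasi-likelihood test gave an adjusted p of 0.638. Without Snhg11-ASO replicate 1 the log2 fold change was -0.38 and the groups no longer overlapped, where 13.7% of all genes were lower without overlap. Between the groups, interneuron markers moved in the same direction: 13 of 15 had a negative log2 fold change (median -0.26), and 5 were lower without overlap (against 7.7% of all genes). Their summed level was 1022, 935 and 915 CPM in Control-ASO replicates 1 to 3, and 722, 785 and 839 CPM with Snhg11-ASO. Within each group this order of the replicates was the reverse of that of Scn1a. Erbb4, a neuregulin receptor of interneurons, had the smallest p of that list, with a log2 fold change of -0.82 (SE 0.13, adjusted p = 0.308, edgeR). The Erbb4 gene spans 1076 kb, and of the 223 genes tested with a span over 500 kb, 51.1% were lower without overlap. The part of interneuron content in the Scn1a values was not tested.

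Scn8a encodes Nav1.6, which clusters at the mature axon initial segment and at nodes of Ranvier. The gene (ENSMUSG00000023033) spans chr15:100869858-101045938 on the plus strand. Scn8a measured 417, 427 and 335 CPM with Control-ASO and 458, 370.0 and 302 CPM with Snhg11-ASO, in the order of the replicates. The 6 values interleaved, with both the highest and the lowest value in the Snhg11-ASO group. Its log2 fold change was -0.06 (SE 0.17, interval -0.47 to 0.35, adjusted p = 0.940, edgeR), and its sign turned under several settings that are given with the dependence on processing. Scn3a encodes Nav1.3, a channel best known from the embryonic brain, and its gene (ENSMUSG00000057182) runs from 65457118 to 65567627 on the minus strand of chromosome 2. It measured 99.7, 102 and 109 CPM with Control-ASO and 113, 117 and 108 CPM with Snhg11-ASO. A single pair of samples crossed, since Snhg11-ASO replicate 3 lay just below Control-ASO replicate 3. The log2 fold change of 0.12 (SE 0.08, interval -0.07 to 0.31, adjusted p = 0.734, edgeR) had the opposite sign to those of its neighbours Scn1a and Scn2a.

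Stretches of coding sequence are identical between the neighbouring alpha subunit genes, which matters for counting because read pairs that map equally well to several places were left out by the aligner. Such stretches were short against the whole transcripts. Of all windows of 50 bases, the length of 1 read, 3.63% in Scn1a, 5.08% in Scn2a and 5.13% in Scn3a occurred in another gene of the 9, but 0.0374% in Scn8a, 0.0747% in Fgf13 and 0 in the other genes. Levels of Scn1a, Scn2a and Scn3a per length can be undercounted there, at the same bases in all 6 samples.

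The makeup of the alpha subunit pool was compared per length, with CPM divided by the merged exonic length of each gene in kilobases. The summed level of the 4 genes was 87.6, 88.2 and 91.3 CPM per kb with Control-ASO and 84.4, 81.8 and 73.3 CPM per kb with Snhg11-ASO, so that the groups did not overlap. Scn3a made up 9.13%, 9.27% and 9.62% of this sum in Control-ASO and 10.7%, 11.5% and 11.9% with Snhg11-ASO. Its share was higher in each Snhg11-ASO sample than in any Control-ASO sample, by 2.01 percentage points on average (exact permutation test, two-sided p = 0.1, 0.233 after adjustment over the 7 shares tested). Scn2a held the largest share, with 44.4% ± 2.19 (SD, n = 3) in Control-ASO and 42.2% ± 4.65 (SD, n = 3) in Snhg11-ASO. The shares of Scn2a, Scn8a and Scn1a overlapped between the groups, with exact permutation p-values of 0.6, 0.7 and 0.4.

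**Figure D2:**
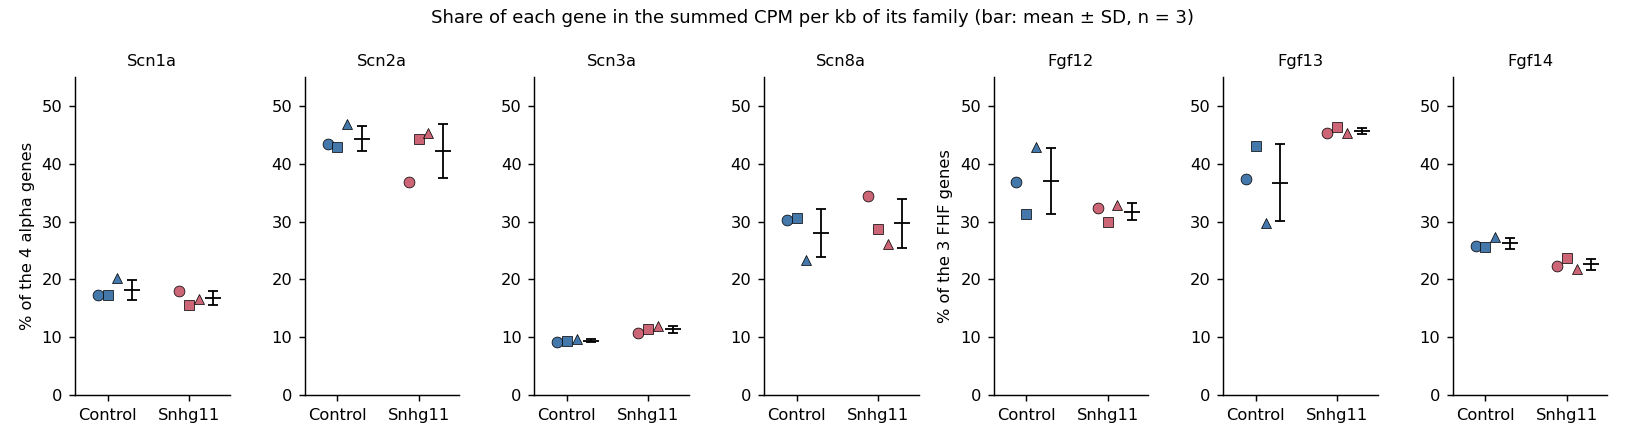
Share of each gene in the summed CPM per kb of its family, in percent, for the 4 alpha subunit genes and the 3 FHF genes. Points are samples (Control-ASO in blue, Snhg11-ASO in red) and bars the mean ± SD; the Scn3a and Fgf13 shares are higher and the Fgf14 share lower in all 3 Snhg11-ASO samples, and the other 4 shares overlap.

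Of the beta subunits, Scn2b is joined to the alpha subunit by a disulphide bond and promotes its delivery to the cell surface. Scn2b (ENSMUSG00000070304, chr9:45117782-45130070, plus strand) measured 211, 233 and 243 CPM with Control-ASO and 115, 223 and 218 CPM with Snhg11-ASO. Snhg11-ASO replicate 1 alone lay far below the rest, and the other Snhg11-ASO samples fell within the range of Control-ASO. This gave a log2 fold change of -0.31 (SE 0.24, interval -0.88 to 0.27, adjusted p = 0.771, edgeR), and without that replicate it was -0.06. Paired by replicate number, Scn2b was lower in all 3 pairs, and the fit with the replicate block gave -0.37 (adjusted p = 0.635, edgeR). Scn3b, whose product binds the alpha subunit without a covalent bond, lies on the same chromosome (ENSMUSG00000049281, chr9:40269217-40291618, plus strand). It measured 192, 243 and 179 CPM with Control-ASO and 191, 256 and 219 CPM with Snhg11-ASO. The groups overlapped, and the log2 fold change was 0.12 (SE 0.16, interval -0.25 to 0.49, adjusted p = 0.861, edgeR).

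The FHF genes are the longest of the 9, because alternative first exons lie far upstream of a shared body, and each first exon gives the protein a different start. Promoter windows of RefSeq on GRCm38.p6, from 250 bases before to 50 bases after a transcript start, were found for 7 of the 9 genes, with 15 windows in all and none listed for Scn3a or Scn3b. For each FHF gene the window richest in G and C is printed, since Fgf12 and Fgf14 had lower levels in Snhg11-ASO and Fgf13 did not, and capitals mark the GC box letters GGGCGG or their reverse complement. They are Fgf12 chr16:28564902-28565201, Fgf13 chrX:59567299-59567598 and Fgf14 chr14:124192497-124192796, each on the minus strand and written 5′ to 3′ along it.
Fgf12: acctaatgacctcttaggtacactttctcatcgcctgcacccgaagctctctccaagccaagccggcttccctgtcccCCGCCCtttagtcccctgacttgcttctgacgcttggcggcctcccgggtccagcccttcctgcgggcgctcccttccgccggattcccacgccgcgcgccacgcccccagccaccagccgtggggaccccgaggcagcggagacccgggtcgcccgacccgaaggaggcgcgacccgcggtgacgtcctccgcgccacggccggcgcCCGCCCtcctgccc
Fgf13: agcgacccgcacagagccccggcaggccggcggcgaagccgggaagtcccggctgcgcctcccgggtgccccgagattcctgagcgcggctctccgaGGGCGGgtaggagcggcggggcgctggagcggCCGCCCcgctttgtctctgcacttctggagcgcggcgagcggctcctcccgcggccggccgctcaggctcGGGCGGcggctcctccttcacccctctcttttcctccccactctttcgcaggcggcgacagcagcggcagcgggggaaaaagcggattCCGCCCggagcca
Fgf14: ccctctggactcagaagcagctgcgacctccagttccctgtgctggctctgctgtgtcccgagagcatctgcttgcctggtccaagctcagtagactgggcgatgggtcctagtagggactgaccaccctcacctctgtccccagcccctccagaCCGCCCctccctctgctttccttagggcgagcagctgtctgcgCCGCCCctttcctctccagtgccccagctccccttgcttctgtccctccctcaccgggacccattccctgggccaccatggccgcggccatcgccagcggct
The windows held 2, 4 and 2 GC boxes and had a GC content of 71.7%, 74.3% and 65.7%, against a median of 52.7% over all 32817 windows. For Fgf12 and Fgf13 the choice of the richest window raises these values. Their other windows had 56.3%, 67.7% and 63.7% (Fgf12) and 46.3%, 40.3% and 73% (Fgf13), and Fgf14 had no other window. The windows at 63.7%, 46.3% and 40.3% held 0 GC boxes. GC boxes were present in 35.6% of all windows and in 6 of the 15 windows of these genes, all of them in Fgf12, Fgf13 and Fgf14. The TATA letters TATAAA were in 13.6% of all windows and in a window each of Scn2a and Fgf13. Searched on both strands as well, the motif arms TTCAGCACC and GGACAGC of the repressor REST were in 0.372% and 6.56% of all windows and in 0 of the 15. At such small shares 15 windows are too few to show an absence, and sequence outside the windows was not searched. The CCAAT box was in 37.4% of all windows and in 3 of the 15. Matches of different motifs shared no bases in these 15 windows, while neighbouring GC boxes can.

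Fgf14 (FHF4), which shapes the sodium currents of hippocampal and cerebellar neurons, had the smallest p of the 9 genes. The gene (ENSMUSG00000025551) spans chr14:123977907-124677127 on the minus strand. It measured 46.0, 44.9 and 48.7 CPM with Control-ASO and 29.7, 36.0 and 31.8 CPM with Snhg11-ASO. The Control-ASO samples lay close together, and the highest Snhg11-ASO sample stayed well below the lowest of them. The mean was 46.5 ± 1.97 CPM (SD, n = 3) in Control-ASO and 32.5 ± 3.22 CPM (SD, n = 3) in Snhg11-ASO. Its log2 fold change was -0.52 (SE 0.11, interval -0.77 to -0.27), with an unadjusted p of 0.00183 and an adjusted p of 0.397 in the edgeR quasi-likelihood test. In DESeq2 the log2 fold change was also -0.52, with an adjusted p of 0.0232. DESeq2 gave -0.46 without Snhg11-ASO replicate 1 (adjusted p = 0.0091) and -0.61 without replicate 2 (adjusted p = 0.0151). Without replicate 3 it gave -0.51 and did not pass the threshold (adjusted p = 0.136).

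Fgf12 (FHF1) encodes a factor that shifts the voltage at which sodium channels inactivate, and its gene (ENSMUSG00000022523) spans chr16:28160098-28753068 on the minus strand. Fgf12 measured 97.5, 81.7 and 113 CPM with Control-ASO and 63.6, 67.8 and 71.4 CPM with Snhg11-ASO. The Control-ASO samples were the more spread, and their lowest, replicate 2, still lay above every Snhg11-ASO sample. The log2 fold change was -0.53 (SE 0.13, interval -0.84 to -0.22), with an unadjusted p of 0.005 and an adjusted p of 0.465 in the edgeR quasi-likelihood test. DESeq2 gave an adjusted p of 0.084.

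Fgf13 (FHF2), which also binds microtubules in developing neurons, is on the X chromosome (ENSMUSG00000031137, chrX:59062145-59568071, minus strand). It measured 64.0, 72.6 and 50.9 CPM with Control-ASO and 57.8, 67.9 and 63.8 CPM with Snhg11-ASO. All Snhg11-ASO samples fell inside the Control-ASO range. The log2 fold change of 0.01 (SE 0.14, adjusted p = 0.985, edgeR) had an interval from -0.33 to 0.36, which overlaps the intervals of Fgf12 and Fgf14.

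The total of the 3 FHF genes was 42.7, 42.0 and 42.6 CPM per kb with Control-ASO and 31.7, 36.4 and 35.0 CPM per kb with Snhg11-ASO. The Control-ASO totals were nearly equal, although the levels of Fgf12 and Fgf13 varied among these samples in opposite directions. Fgf13 made up 37.4%, 43.1% and 29.7% of the total in Control-ASO and 45.3%, 46.4% and 45.4% with Snhg11-ASO. The Fgf13 share was thus higher in all 3 Snhg11-ASO samples, by 8.97 percentage points on average, with 5.48 points without Control-ASO replicate 3 and 12.14 without Control-ASO replicate 2. The Fgf14 share lay lower, at 25.8%, 25.6% and 27.4% with Control-ASO against 22.4%, 23.6% and 21.7% with Snhg11-ASO, a difference of -3.67 points. Both shares gave an exact permutation p of 0.1 (0.233 adjusted over the 7 shares). The Fgf12 share overlapped, with a mean of 37.0% with Control-ASO and 31.7% with Snhg11-ASO (exact permutation p = 0.3), and its difference ran from -8.13 to -2.37 points when each sample was left out.

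Genomic span, the distance between the ends of a gene, went with lower values among the longest genes, which touches the FHF values most. The median log2 fold change lay between -0.02 and 0.04 in the classes up to 200 kb. It was -0.13 in the class of 200 to 500 kb. The 3 FHF genes span 593 kb (Fgf12), 506 kb (Fgf13) and 699 kb (Fgf14), the 4 alpha subunit genes 111 to 176 kb, and Scn2b and Scn3b 12.3 and 22.4 kb. Among the 223 genes tested with a span over 500 kb, the median log2 fold change was -0.37 (quartiles -0.62 and -0.15), and 51.1% were lower in Snhg11-ASO without overlap. Within that class, 28.7% of genes had a lower log2 fold change than Fgf12 and 30.5% a lower one than Fgf14, whereas 91.9% lay below Fgf13. Over all genes tested the corresponding figures were 6.57%, 6.84% and 50.9%. Fgf12 and Fgf14 were therefore within the quartiles of genes of their span, and Fgf13 was above them. In the class of 100 to 200 kb (1467 genes, median -0.02), 17.6% lay below Scn1a and 21.3% below Scn2a. Scn8a had 43.3% of that class below it and Scn3a 72.5%. Scn1a and Scn2a were thus below the lower quartile (-0.19), and Scn8a and Scn3a within the quartiles. In the class of 10 to 30 kb (5232 genes, median 0.04), 9.71% lay below Scn2b and 63.2% below Scn3b. Scn2b was thus below the lower quartile (-0.11), with its lowest level in Snhg11-ASO replicate 1.

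**Figure D3:**
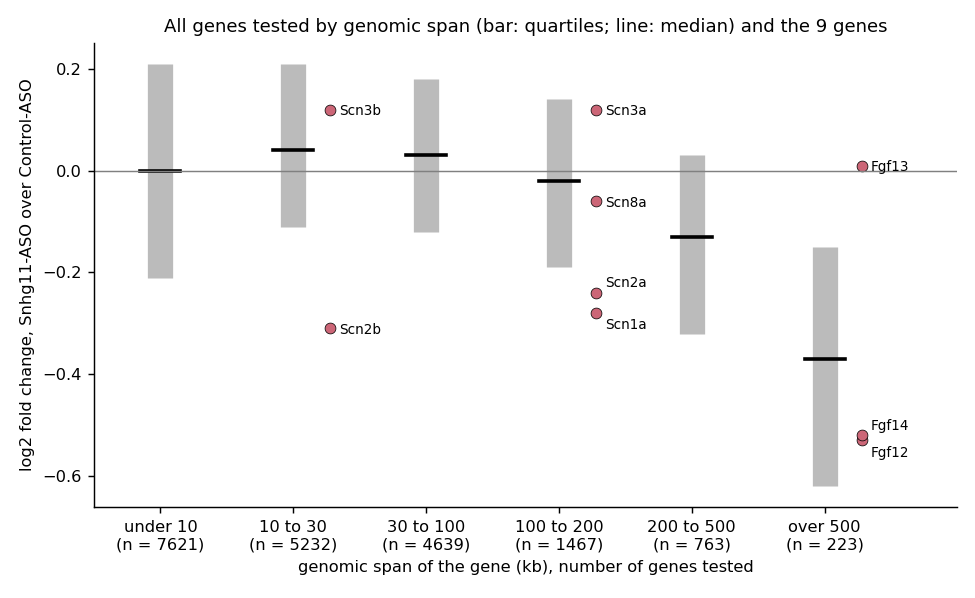
Log2 fold change (Snhg11-ASO over Control-ASO) of the genes tested that have an annotated span, in 6 classes of genomic span in kb. Bars run from the lower to the upper quartile with a line at the median, and the 9 genes are red points beside their class. The median is -0.37 in the 223 genes over 500 kb, and there Fgf12 (-0.53) and Fgf14 (-0.52) lie inside the bar and Fgf13 (0.01) above it.

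When each sample's trend with genomic span was removed, the log2 fold changes became -0.26 for Fgf12, -0.22 for Fgf14 and 0.26 for Fgf13. Under this correction Fgf14 and Scn2a (-0.18) were still lower without overlap, Fgf12 overlapped between the groups, and Scn3a (0.15) was higher without overlap, against 7.17% of all genes lower and 7.94% higher. The change moved the 3 FHF values by a similar amount and kept the gap between Fgf13 and its relatives. Scaling to the summed markers of neurons was the other setting that bears on cell content. The 23 pan-neuronal genes summed to 10027 to 10339 CPM with Control-ASO and 9559 to 10122 CPM with Snhg11-ASO, with 18 of 23 log2 fold changes below 0 (median -0.08). Relative to them, Fgf12 stood at -0.47, Fgf14 at -0.46, Scn1a at -0.21, Scn2a at -0.18, and Scn3a at 0.18. Fgf12, Fgf14 and Scn2a remained lower without overlap on this scale, and Scn3a became higher without overlap, against 5.26% of all genes lower and 11.9% higher. The part of genomic span and of neuronal content in the differences was not tested beyond these values.

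**Figure D4:**
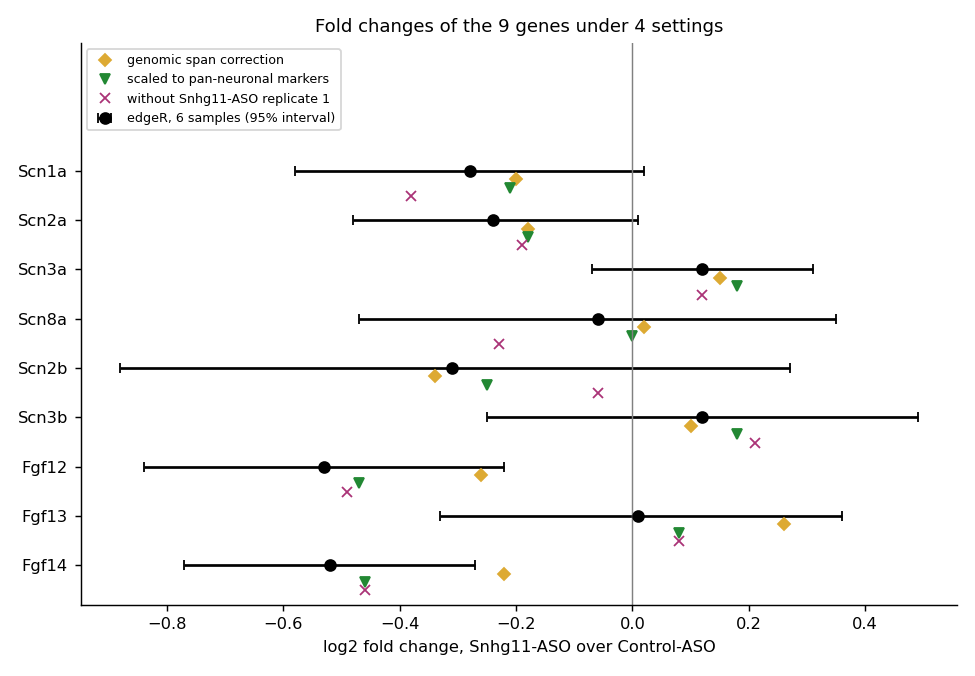
Log2 fold change of each gene (Snhg11-ASO over Control-ASO, linear axis of log2 values) from the edgeR fit of all 6 samples with its 95% interval (black), after correction for genomic span (yellow), after scaling to pan-neuronal markers (green) and without Snhg11-ASO replicate 1 (crosses). The intervals of Fgf12 and Fgf14 lie below 0, the span correction moves both towards 0 and Fgf13 away from it, and Scn2b falls from -0.31 to -0.06 in size without that replicate.

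The order of levels within the Control-ASO samples was read per length. Scn2b was highest at 49.2 ± 3.58 CPM per kb (SD, n = 3), followed by Scn2a at 39.5 ± 2.83 and Scn3b at 37.4 ± 6.17, and the ranges of Scn2a and Scn3b overlapped. Scn8a came next at 24.9 ± 3.19 CPM per kb. Scn1a, Fgf12 and Fgf13 lay together at 16.3 ± 1.91, 15.7 ± 2.54 and 15.6 ± 2.73 CPM per kb, and neighbours in this trio did not differ beyond their spread. Fgf14 (11.1 ± 0.47) and Scn3a (8.32 ± 0.414) were lowest, with ranges that did not overlap. In the Snhg11-ASO samples this last order was reversed, with Scn3a at 9.04 ± 0.336 and Fgf14 at 7.77 ± 0.771 CPM per kb. The order of Fgf12 over Fgf13 held in 1 of the 6 samples and that of Scn8a over Scn1a in all 6.

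Other sodium channel and FHF genes did not separate the groups. Of a list of 10, the muscle channel Scn4a and the sensory neuron channels Scn10a and Scn11a had at most 14, 4 and 7 counts in a sample and were not tested. Of the 7 tested, 5 had a negative log2 fold change (median -0.21, and -0.03 without Snhg11-ASO replicate 1), 0 passed the threshold or an unadjusted p under 0.05, and 0 separated the groups. Scn4b, a further beta subunit gene, stood at 0.19 (SE 0.22). The smallest p-values belonged to Scn9a, a channel of sensory neurons (log2 fold change -0.81, SE 0.42, at most 5.57 CPM in a sample), to the sodium leak channel Nalcn (-0.21, SE 0.14) and to Fgf11, the remaining FHF (-0.25, SE 0.26). Without Snhg11-ASO replicate 1, Nalcn stood at -0.07 and Fgf11 at -0.03.

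The scaffold of the axon initial segment, where the channels are anchored, was read from 18 genes. Their median log2 fold change was -0.07, with 11 below 0, 0 past the threshold in edgeR, 3 lower at an unadjusted p under 0.05 (against 4.43% of all genes) and 4 lower without overlap (against 7.7% of all genes). Without Snhg11-ASO replicate 1 the median of these genes was -0.12. Ank3, which encodes the anchor ankyrin-G, stood at -0.06 (SE 0.22). Ank3 measured 632, 557 and 494 CPM with Control-ASO and 723, 489 and 406 CPM with Snhg11-ASO, in the order of the replicates. Snhg11-ASO replicate 1 lay above all Control-ASO samples, and the other Snhg11-ASO samples lay below all of them. Cntnap2, a neurexin-like protein that clusters potassium channels along the axon, measured 151, 144 and 113 CPM with Control-ASO and 106, 97.3 and 91.1 CPM with Snhg11-ASO (log2 fold change -0.47, SE 0.13, adjusted p = 0.497, edgeR). Dlg2, a scaffold protein of the same sites and of synapses, stood at -0.37 (SE 0.11), and the adhesion molecule L1cam at -0.61 (SE 0.20). Cntnap2 and Dlg2 turned to 0.04 and 0.10 under the correction for genomic span, a move of the same kind as in Fgf12 and Fgf14. Both lie in the class over 500 kb, where 51.1% of genes were lower without overlap. Ank3 (629 kb) and Ank2 (578 kb, log2 fold change -0.10, SE 0.11) of this list lie in the same class, and their groups overlapped.

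Genes known to regulate sodium channels showed a median log2 fold change of 0.06, with 16 of 26 above 0, 0 past the threshold, 1 at an unadjusted p under 0.05 (against 3.68% of all genes higher) and 3 higher without overlap (against 7.73% of all genes). The gene at an unadjusted p under 0.05 was Rest, a repressor of neuronal genes that include Scn2a, at 11.6, 10.9 and 10.4 CPM with Control-ASO and 22.6, 12.7 and 15.3 CPM with Snhg11-ASO. All Snhg11-ASO samples lay above the Control-ASO samples, and replicate 1 was the highest. The log2 fold change was 0.62 (SE 0.22, unadjusted p = 0.0263, adjusted p = 0.562, edgeR), and 0.35 without that replicate. Pum2, an RNA-binding repressor of sodium channel transcripts, stood at 0.23 (SE 0.13), and at 0.09 without Snhg11-ASO replicate 1.

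Markers of other cells were set beside these values. Reactive glia genes had higher values with Snhg11-ASO, with 12 of 12 log2 fold changes above 0 (median 1.24), 7 higher without overlap (against 7.73% of all genes) and summed levels of 206, 491 and 367 CPM with Control-ASO against 1269.6, 676 and 787 CPM with Snhg11-ASO. The highest sum belonged to Snhg11-ASO replicate 1, the sample in which Scn2a, Scn2b, Fgf12 and Fgf14 were lowest of all 6, Scn8a was highest of all 6 and Scn1a was highest of its group. The median log2 fold change was -0.00 for the granule cell, 0.06 for the pyramidal cell, -0.02 for the astrocyte, -0.07 for the microglia, 0.09 for the endothelial and 0.18 for the oligodendrocyte list. Without Snhg11-ASO replicate 1 these medians were 0.12, 0.31, 0.20, 0.26, 0.07 and 0.56 in the same order, and that of the reactive glia was 0.96. All 11 choroid plexus genes had a log2 fold change below 0 with all samples. None of these lists held a gene past the threshold in edgeR. The part of glial reaction in the sodium channel and FHF values was not tested.

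The genes whose levels followed the 9 most closely over the 6 samples were found with the mean of the 9 standardised log2 CPM profiles. This mean was 0.133, 0.416 and 0.323 with Control-ASO and -0.550, 0.151 and -0.472 with Snhg11-ASO, so that Snhg11-ASO replicate 2 lay within the Control-ASO range. The closest were Cdk14 (r = 0.992), Pcdhga5 (0.991), Sh3kbp1 (0.987), Pias1 (0.987) and Atp13a2 (0.984). These 5 are the highest of 19969 genes searched, over 6 samples that share tissue and library preparation, and the values are a description only.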

How the data were processed

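Total RNA of the dorsal hippocampus was sequenced in 3 Control-ASO and 3 Snhg11-ASO samples (ribosomal RNA depleted, stranded, paired reads). The authors aligned reads to GRCm38 (mm10) with STAR 2.5.2a and deposited raw counts per gene without normalization or pooling. Lines that name no gene held 43.5% to 51.4% of the pairs (59542425 to 77826229 per sample) and were left out. STAR drops pairs that map to several places. It also drops pairs on exons of several genes, and these alone were 0.600% to 0.761% of the pairs. The paper's methods name another counter, and state that a Snhg11-ASO sample was removed, without saying which; all 6 samples were used. Reverse-strand counts (96.2% to 96.8% of stranded pairs) were taken, and names, spans and merged exonic lengths came from GENCODE M21, which held 55141 of the 55401 identifiers.

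Genes were filtered with filterByExpr (minimum count 10), scaled with TMM and compared with edgeR 4.0.16 in R 4.3.3, by the quasi-likelihood test, with p-values adjusted (Benjamini-Hochberg) over 19969 genes and a threshold of 0.05. The biological coefficient of variation was 0.266. Standard errors were derived from each log2 fold change and its F statistic. Log2 CPM for profiles used a prior count of 2. The span correction removed each sample's lowess trend (span 0.3) as offsets. Scripts were tested on simulated data. Shares were compared with exact permutation tests (scipy 1.17.1). Alternatives were DESeq2 1.42.0, its size factors in edgeR, no filter, counts of both strands, the replicate block, the span correction with and without it, pan-neuronal scaling and leaving out each sample.

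Same-numbered samples deviated together from their group means (correlations of 0.297, 0.179 and 0.103, all over 0.1), so a fit that pairs samples by number was added as an alternative. This rests on the values alone, without correlations of differently numbered samples beside them, and does not establish a pairing. The fits and exact tests printed do not use the pairing, except where the replicate block is named. The 9 genes, the lists and the tests were chosen with earlier results of these data known. Named were Snhg11, the 9 genes, and genes of each list past the threshold or among its 3 smallest p-values. Also named were overlapping genes with a mean of at least 10 counts, and the 5 closest profiles. Scn4b, Ank2 and Ank3 were named outside this rule, after their values were seen. Some genes and sequences under this rule are not reported here.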

Additional observations from a re-analysis of the deposited data

How the results depend on the processing

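With 17 alternatives for each of the 9 genes, no direction changed for Scn1a (-0.38 to -0.18 on the log2 scale), Scn2a (-0.30 to -0.18), Scn3a (0.08 to 0.18), Scn2b (-0.46 to -0.06), Fgf12 (-0.64 to -0.24) and Fgf14 (-0.61 to -0.22). The adjusted p of Fgf14 ran from 0.0091 to 0.979 and passed the threshold in 3 alternatives, all of them DESeq2 fits, and that of Fgf12 from 0.0807 to 0.979 in none. Scn8a turned to 0.02 under the span correction, 0.01 with the replicate block added, 0.00 under pan-neuronal scaling and without Control-ASO replicate 2, and 0.07 without Snhg11-ASO replicate 3 in edgeR and DESeq2 (-0.23 to 0.07 when each sample was left out). Fgf13 turned to -0.12 without Control-ASO replicate 3, and without Snhg11-ASO replicate 2 to -0.04 in edgeR and -0.05 in DESeq2, where Scn3b was at -0.00 (Fgf13 from -0.12 to 0.14 when each sample was left out). Under the span correction Cntnap2 turned to 0.04 and Dlg2 to 0.10 (0.03 and 0.10 with the block). In percentage points, the difference in the Scn8a share turned to -0.72 without Control-ASO replicate 3 and to -0.67 without Snhg11-ASO replicate 1, where that in Scn2a turned to 0.46 (ranges of -0.72 to 3.49 and -3.83 to 0.46 when each sample was left out). The causes were not tested.

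The paired fit with the replicate block left Fgf12 and Fgf14 at -0.52 each (adjusted p = 0.474 and 0.478, edgeR) and changed no call. DESeq2 called 251 genes, among them 1 of the 9 (Fgf14), where edgeR called 0. Leaving out a sample, edgeR called 0 to 2 genes (2 without Snhg11-ASO replicate 1), and DESeq2 called 346, 268 and 216 genes without Snhg11-ASO replicates 1, 2 and 3, with 0 to 1 of the 9 and 0 to 1 of the scaffold genes (Cntnap2 without replicate 1, Dlg2 without replicate 2). The genes of the 9 without overlap between groups numbered 3 to 5 when a sample was left out, and 5 without Control-ASO replicate 1 (Scn1a and Scn2b added) or replicate 3 (Scn1a and Scn3a added). With fewer samples separation was more frequent among all genes too: 11.3% to 13.7% were lower and 11.4% to 14.7% higher without overlap when a sample was left out, against 7.7% and 7.73% with all 6.

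The 9 genes had 1132 to 19252 counts per sample, with the fewest in Fgf14.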

Other observations

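Some annotated genes lie within the introns of the 9 genes. In Fgf14, the unclassified transcript Gm49069 (chr14:124608482-124612492, same strand) measured 28.9, 25.8 and 29.4 CPM with Control-ASO and 17.05, 25.2 and 23.2 CPM with Snhg11-ASO. The groups did not overlap, and the log2 fold change was -0.36 (SE 0.16, adjusted p = 0.633, edgeR). Its counts relative to those of Fgf14 were 0.629, 0.575 and 0.604 with Control-ASO and 0.574, 0.700 and 0.730 with Snhg11-ASO, which overlapped. Reads of Gm49069 cannot be told apart from unspliced Fgf14 RNA. In Fgf12, the microRNA gene Mir690 (chr16:28599935-28600043, same strand) had 36, 26 and 28 counts with Control-ASO and 13, 18 and 24 with Snhg11-ASO, without overlap (log2 fold change -1.08, SE 0.33, adjusted p = 0.53, edgeR). Reads in such a short gene cannot be told apart from unspliced Fgf12 RNA. In Scn1a, the opposite-strand transcript Gm13630 stood at -0.55 (SE 0.30), with 22 to 34 counts per sample. Gm28932, opposite to the end of Fgf14, and the pseudogene Gm15422 in its intron had 9 to 28 and 11 to 16 counts per sample, and their groups overlapped.

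On the strand opposite to each gene, the counts were at most 0.642% of those on the gene's strand, except at Fgf14 with 2.19% to 7.39%, where the groups overlapped. At Fgf13 the opposite strand held 7, 12 and 11 counts with Control-ASO and 8, 7 and 4 with Snhg11-ASO.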
